A study of Homo sapiens with 12 samples.

Results

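Cholesterol is made, imported, moved and stored by a small set of gene products, and 31 of these genes are described here in MDA-MB-468, an established cell line of triple-negative breast cancer. They were chosen by gene symbol for their known roles in the pathway, with earlier results of these data known. All 31 were found among the 57783 genes of the count table. Of these, 8 encode steps from acetyl-CoA to isoprenoids (mevalonate steps), 12 encode steps from squalene synthesis to cholesterol (sterol steps), 5 regulate the pathway, and 6 act in uptake, lysosomal release, transport or storage. Before sorting, cells had been cultured for 10 days with EPZ5676, a small-molecule inhibitor of the histone methyltransferase DOT1L, at 0.5 µM, or with its solvent DMSO. Fluorescence-activated sorting then separated cells with and without aldehyde dehydrogenase 1 signal. This gave 4 groups of 3 biological replicates: EPZ5676 ALDH1+, DMSO ALDH1+, EPZ5676 ALDH1- and DMSO ALDH1-. All 4 come from 1 cell line, and how the sorting gates were set is not given in the sources used here.

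Cholesterol synthesis starts when acetyl-CoA units are joined and turned into mevalonate, which is phosphorylated and decarboxylated to isoprene units. These are joined to squalene, which is oxidised, folded into lanosterol and trimmed to cholesterol. When sterols in the endoplasmic reticulum run low, SCAP carries the transcription factor SREBP2, the product of SREBF2, to the Golgi apparatus, where it is released by cleavage and switches on most genes of the pathway. INSIG proteins hold SCAP back when sterols are plentiful. Liver X receptors act in the other direction and switch on genes of cholesterol export.

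Total counts lay between 24348594 and 80195050 per library. All 31 genes passed the filter on low counts, together with 16327 genes in all, and their counts ran from 43 to 21527 per library. Levels are given as CPM, the count of a gene scaled to a library total of 1000000 with library sizes adjusted by TMM. CPM does not correct for gene length, so levels are compared between libraries and not between genes. The epithelial genes EPCAM, CDH1, KRT8, KRT18 and EGFR were present in all 12 libraries. CDH1 was at 66.2 to 79.7 CPM in EPZ5676 and at 98.2 to 120.3 CPM in DMSO libraries. Its log2 fold change with EPZ5676 was -0.61 in the average over both populations (adjusted p 3.3e-06, edgeR). EPCAM (-0.21, adjusted p 0.0086) and KRT8 (-0.18, adjusted p 0.017) also fell, and EGFR rose (0.48, adjusted p 0.0028). KRT18 did not pass (-0.12, adjusted p 0.079). PGR was at 0 in 11 of 12 libraries, while ESR1, whose protein defines the hormone receptor status, was at 6.83 to 10.8 CPM. Transcripts of ALDH1A3, one of the enzymes the sorting reads, did not overlap between the sorted populations with either treatment. They had 1984, 2058 and 1818 CPM in EPZ5676 ALDH1+ against 1424, 1412 and 1512 CPM in EPZ5676 ALDH1- libraries. With DMSO they had 1596, 1864 and 1467 CPM in ALDH1+ against 1372, 1361 and 1379.9 CPM in ALDH1- libraries. Among all genes, libraries of the populations did not overlap for 9.57% with EPZ5676 and for 23.1% with DMSO. In edgeR's quasi-likelihood test ALDH1A3 did not pass with EPZ5676 (log2 fold change 0.43, adjusted p 0.16) or with DMSO (0.26, adjusted p 0.17). It passed in the average over both treatments (0.35, adjusted p 0.037). ALDH1A1, another such enzyme, overlapped between the populations with either treatment: it had 12.8, 9.41 and 13.2 CPM in EPZ5676 ALDH1+ against 13.9, 10.5 and 11.5 CPM in EPZ5676 ALDH1- libraries, and 33.3, 27.9 and 38.3 CPM in DMSO ALDH1+ against 23.4, 23.7 and 28.6 CPM in DMSO ALDH1- libraries. With EPZ5676, ALDH1A1 fell by 1.295 on the log2 scale in the average over both populations (SE 0.11, adjusted p 2.4e-07). ALDH1A3 rose by 0.165 in that average (SE 0.06, adjusted p 0.031). Its log2 fold change was 0.25 in ALDH1+ cells (adjusted p 0.029) and 0.08 in ALDH1- cells (adjusted p 0.53). Of 10 markers of leukocytes, fibroblasts and endothelium, 9 were found and 5 could be tested, of which 4 were higher and 1 lower with EPZ5676 (average over both populations). Among all genes tested, 21.9% were higher and 20.0% lower in that comparison. The summed level of the 9 markers was 33.8 to 35.0 CPM in EPZ5676 ALDH1+ and 17.6 to 22.6 CPM in DMSO ALDH1+ libraries. In ALDH1- libraries it was 30.1 to 37.5 CPM with EPZ5676 and 19.4 to 25.1 CPM with DMSO. COL1A1 and CSF1R made up most of it, CD3E was at 0 in 10 of 12 libraries, and COL3A1 was at 0 in all 6 DMSO libraries. Whether these markers have a part in the results below was not tested.

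Genes of cholesterol synthesis fell with EPZ5676 in both sorted populations, SREBF2 and INSIG1 fell with them, and SOAT1, which stores cholesterol as esters, rose. Averaged over both populations, 21 of the 31 genes fell and 3 rose at an adjusted p below 0.05 in edgeR's quasi-likelihood test. The average counts the sorted populations as independent, and whether they came from separate cultures is not given in the sources used here. Over all genes tested, 41.9% were called, 20.0% lower and 21.9% higher. The 31 genes together took 0.203 to 0.213% of all counts in the 6 EPZ5676 libraries and 0.249 to 0.267% in the 6 DMSO libraries, so the ranges did not overlap. In a bulk library, fewer cells making a transcript and less transcript per cell cannot be told apart.

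Within ALDH1+ cells 19 of the 31 genes fell and 1 rose, where 31.5% of all genes were called, 13.7% lower and 17.8% higher. Within ALDH1- cells 19 fell and 3 rose, where 22.6% of all genes were called, 9.04% lower and 13.6% higher. For 22 genes all 3 EPZ5676 ALDH1+ libraries lay below all 3 DMSO ALDH1+ libraries, for 1 they lay above, and for 8 the libraries overlapped. The corresponding numbers in ALDH1- cells were 20 below, 3 above and 8 overlapping. Among all genes, libraries did not overlap for 41.4% in ALDH1+ cells, 19.3% with EPZ5676 below, and for 39.1% in ALDH1- cells, 19.4% with EPZ5676 below.

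The 20 synthesis genes account for most of the falls: 18 fell and 0 rose in the average over both populations, 17 fell in ALDH1+ cells and 16 in ALDH1- cells. Of all genes tested, 20.0%, 13.7% and 9.04% fell in these comparisons. The median log2 fold change of the 20 genes was -0.46 in the average, -0.49 in ALDH1+ and -0.49 in ALDH1- cells. The medians over all genes tested were -0.02, -0.01 and -0.02. The mean log2 level of the 20 genes, set against the DMSO mean of the same population, was -0.54, -0.51 and -0.51 in EPZ5676 ALDH1+ libraries, against -0.08, -0.01 and 0.09 in DMSO ALDH1+ libraries. It was -0.40, -0.49 and -0.44 in EPZ5676 ALDH1- libraries, against -0.01, -0.03 and 0.03 in DMSO ALDH1- libraries. On this scale the 6 EPZ5676 libraries differed among themselves by less than they differed from any DMSO library.

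**Figure D1:**
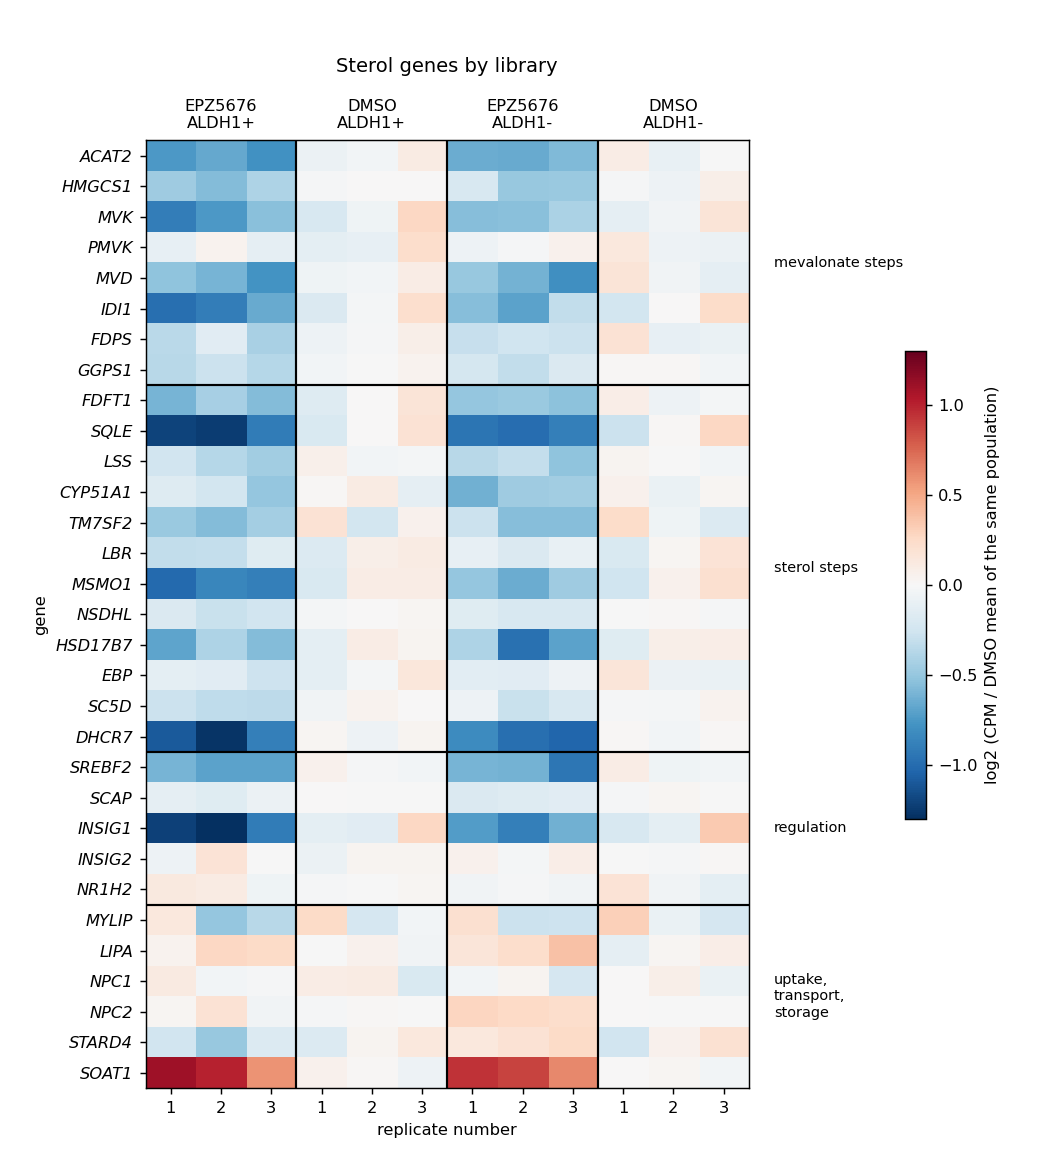
The heat map shows the log2 ratio of CPM in each of 12 libraries (columns, 3 replicates in each of 4 groups) to the mean log2 CPM of the 3 DMSO libraries of the same population, for the 31 genes (rows, grouped by role). Blue cells lie below and red cells above that mean: the synthesis genes and SREBF2 and INSIG1 are blue in the 6 EPZ5676 libraries with few exceptions such as PMVK, and SOAT1 is red.

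Of the 8 mevalonate-step genes, 7 fell in each population and in the average, and PMVK did not pass the test in any of them. Of all genes tested, 13.7% fell in ALDH1+ cells, 9.04% in ALDH1- cells and 20.0% in the average. ACAT2 encodes the thiolase that joins acetyl-CoA units in the cytosol. It had 111, 116 and 108 CPM in EPZ5676 ALDH1+ libraries, against 176, 181 and 199 CPM in DMSO ALDH1+ libraries. In the sorted ALDH1- cells it had 106, 105 and 111 CPM with EPZ5676, against 177, 155 and 165 CPM with DMSO. All 6 EPZ5676 libraries lay below all 6 DMSO libraries, and ACAT2 fell by 0.73 on the log2 scale in ALDH1+ cells (SE 0.07, adjusted p 2.4e-06) and by 0.63 in ALDH1- cells (SE 0.07, adjusted p 1.5e-05). HMGCS1, the synthase that forms hydroxymethylglutaryl-CoA, had 54.4, 50.8 and 56.7 CPM in EPZ5676 ALDH1+ libraries, against 74.4, 75.4 and 75.1 CPM in DMSO ALDH1+ libraries. Its ALDH1- libraries had 64.9, 53.0 and 53.3 CPM with EPZ5676, against 73.9, 71.4 and 79.1 CPM with DMSO. EPZ5676 ALDH1- replicate 1 stood closest to the DMSO libraries, but no library crossed over, and HMGCS1 fell by 0.48 (SE 0.08, adjusted p 0.00043) and 0.39 (SE 0.08, adjusted p 0.0028) in ALDH1+ and ALDH1- cells.

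MVD, the decarboxylase that makes isopentenyl diphosphate, and IDI1, the isomerase that follows it, were also lower. MVD had 72.7, 68.7 and 61.0 CPM in EPZ5676 ALDH1+ libraries, against 101, 102 and 112 CPM in DMSO ALDH1+ libraries. With EPZ5676 its ALDH1- libraries had 76.3, 70.3 and 61.6 CPM, against 120.3, 104 and 98.9 CPM with DMSO. The libraries were clear of each other, and the fall of MVD was 0.63 in ALDH1+ (SE 0.10, adjusted p 0.00015) and 0.63 in ALDH1- cells (SE 0.10, adjusted p 0.00022). IDI1 had 52.6, 55.6 and 65.5 CPM in EPZ5676 ALDH1+ libraries, against 90.7, 101 and 121 CPM in DMSO ALDH1+ libraries. Its ALDH1- values were 55.6, 50.5 and 65.2 CPM with EPZ5676, against 69.1, 81.8 and 95.9 CPM with DMSO. Replicate 3 was the highest of its group in all 4 groups, and IDI1 fell by 0.85 in ALDH1+ cells (SE 0.13, adjusted p 0.00021) and by 0.53 in ALDH1- cells (SE 0.13, adjusted p 0.01).

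The other mevalonate-step genes differed in size of change. MVK, mevalonate kinase, fell by 0.62 in the average over both populations (SE 0.09, adjusted p 8.2e-05). FDPS and GGPS1, which lengthen the isoprene chain to farnesyl and geranylgeranyl diphosphate, fell by 0.29 (SE 0.06, adjusted p 0.0013) and 0.29 (SE 0.04, adjusted p 8.3e-05). PMVK, the kinase that acts between MVK and MVD, stayed within its spread: its log2 ratio was -0.04 (SE 0.07, adjusted p 0.68), and its EPZ5676 and DMSO libraries overlapped in both populations. In the full GENCODE annotation, exons of ACAT2 share 26.5% of their bases with SOD2, 33.9% with SOD2-OT1 and 9.2% with TCP1, all on the opposite strand. Those of GGPS1 share 37.3% with TBCE on the same strand, and those of FDPS, HMGCS1 and IDI1 share 18.6%, 15.0% and 14.8% with antisense transcripts. How the counting assigned such reads is not given, so the counts of these genes are uncertain.

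Among the 12 sterol-step genes, 11 fell in the average over both populations, 10 in ALDH1+ and 9 in ALDH1- cells. Of all genes tested, 20.0%, 13.7% and 9.04% fell in these comparisons. The largest falls among all 31 genes in the average were those of SQLE and DHCR7. SQLE, squalene epoxidase, opens the oxygen-dependent part of the pathway and is one of its rate-limiting enzymes. It had 19.5, 19.1 and 23.9 CPM in EPZ5676 ALDH1+ libraries, against 39.2, 45.0 and 51.3 CPM in DMSO ALDH1+ libraries. Among ALDH1- libraries the values were 21.6, 21.0 and 22.6 CPM with EPZ5676, against 34.4, 42.1 and 50.2 CPM with DMSO. No EPZ5676 library reached the lowest DMSO library, and the DMSO libraries were spread more widely than the EPZ5676 libraries. SQLE fell by 1.13 in ALDH1+ cells (SE 0.13, adjusted p 1.6e-05) and by 0.96 in ALDH1- cells (SE 0.13, adjusted p 0.00012). Its level thus decreased by 54.2% in ALDH1+ cells and decreased by 48.5% in ALDH1- cells.

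DHCR7 encodes the reductase of the last step to cholesterol. It had 68.4, 60.5 and 79.0 CPM in EPZ5676 ALDH1+ libraries, against 149, 139.6 and 150.1 CPM in DMSO ALDH1+ libraries. ALDH1- libraries had 87.6, 78.1 and 75.6 CPM with EPZ5676, against 156, 151 and 156 CPM with DMSO. The gap between the treatments was wide in relation to the spread, and DHCR7 fell by 1.08 in ALDH1+ cells (SE 0.09, adjusted p 5.9e-07) and 0.94 in ALDH1- cells (SE 0.09, adjusted p 3.6e-06). MSMO1, the oxidase that removes methyl groups at carbon C4 of the sterol ring, had 22.0, 24.7 and 24.0 CPM in EPZ5676 ALDH1+ libraries, against 38.7, 47.4 and 47.5 CPM in DMSO ALDH1+ libraries. Its ALDH1- values were 25.1, 22.7 and 25.8 CPM with EPZ5676, against 29.7, 37.0 and 41.2 CPM with DMSO. No EPZ5676 library reached a DMSO library, while DMSO ALDH1- libraries ran lower than DMSO ALDH1+ libraries with overlap, and MSMO1 fell by 0.92 (SE 0.11, adjusted p 2.7e-05) and 0.55 (SE 0.12, adjusted p 0.003) in ALDH1+ and ALDH1- cells.

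FDFT1, squalene synthase, commits isoprenoids to sterols and was lower in every EPZ5676 library than in any DMSO library. Its values were 75.3, 85.0 and 77.4 CPM in EPZ5676 ALDH1+ libraries, against 102, 115 and 129 CPM in DMSO ALDH1+ libraries. They were 83.7, 85.4 and 82.5 CPM in EPZ5676 ALDH1- libraries, against 126, 114 and 117 CPM in DMSO ALDH1- libraries. FDFT1 fell by 0.54 (SE 0.08, adjusted p 0.00017) and 0.51 (SE 0.08, adjusted p 0.00042) in ALDH1+ and ALDH1- cells.

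The other falls of sterol-step genes in the average ran from 0.61 for HSD17B7, a ketosteroid reductase, to 0.20 for LBR, a sterol reductase that also anchors chromatin at the nuclear lamina. Between them lay TM7SF2, a second reductase for the same step as LBR, with 0.49, and CYP51A1, lanosterol demethylase, with 0.40. LSS, which folds the squalene epoxide into lanosterol, fell by 0.38, SC5D, a desaturase, by 0.25, and NSDHL, the decarboxylating dehydrogenase that follows MSMO1, by 0.22. Their adjusted p ran from 2.8e-05 for LSS to 0.026 for LBR. EBP, the sterol isomerase, changed by -0.15 on that scale (SE 0.06, adjusted p 0.051), and fell with an adjusted p of 0.034 once the replicate number entered the fit as a block. SC5D missed the threshold in ALDH1- cells (log2 fold change -0.19, adjusted p 0.052) and passed it there with the block (adjusted p 0.027). CYP51A1 had the fewest counts of the 31 genes. Of its exon bases, 79.4% are shared with another gene on the same strand that is annotated as protein-coding, so its counts are uncertain. HSD17B7 and FDPS have pseudogenes with which their reads could be confused.

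**Figure D2:**
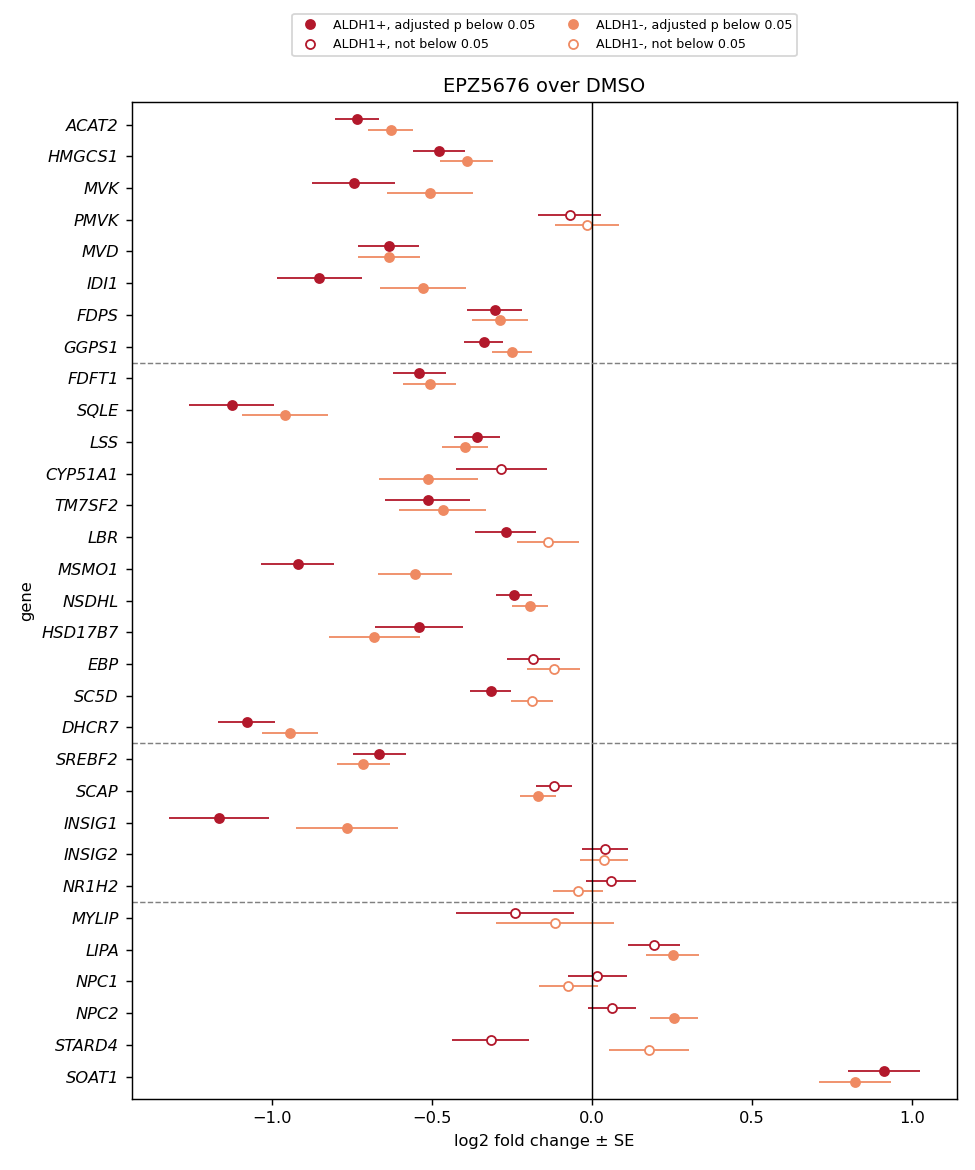
Log2 fold changes of EPZ5676 over DMSO (x axis, with SE bars) are drawn for the 31 genes (y axis), with ALDH1+ cells in dark red above ALDH1- cells in orange; filled points have an adjusted p below 0.05 and dashed lines part the 4 roles. Synthesis genes lie left of 0, down to -1.13 for SQLE in ALDH1+ cells, and SOAT1 lies right of it at 0.91 and 0.82.

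Of the 5 regulators, SREBF2, INSIG1 and SCAP fell in the average over both populations, where 20.0% of all genes fell. INSIG2 and NR1H2 did not pass the test, and SCAP did not pass it in ALDH1+ cells alone (adjusted p 0.12). SREBF2 had 121, 113 and 114 CPM in EPZ5676 ALDH1+ libraries, against 190.5, 181 and 179 CPM in DMSO ALDH1+ libraries. ALDH1- cells gave 144, 143 and 114 CPM with EPZ5676, against 234, 211 and 214 CPM with DMSO. All EPZ5676 libraries lay below all DMSO libraries, and SREBF2 fell by 0.66 in ALDH1+ (SE 0.08, adjusted p 2.8e-05) and 0.71 in ALDH1- cells (SE 0.08, adjusted p 2.2e-05). INSIG1 is itself a target of SREBP2 and is often read as a sign of its activity. It had 12.3, 11.4 and 15.2 CPM in EPZ5676 ALDH1+ libraries, against 26.2, 25.8 and 34.4 CPM in DMSO ALDH1+ libraries. The values in ALDH1- cells were 13.9, 12.4 and 14.9 CPM with EPZ5676, against 19.9, 21.0 and 29.0 CPM with DMSO. Replicate 3 was the highest in all 4 groups, yet no EPZ5676 library reached a DMSO library, and INSIG1 fell by 1.16 in ALDH1+ (SE 0.16, adjusted p 5.5e-05) and 0.76 in ALDH1- cells (SE 0.16, adjusted p 0.0028).

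SCAP moved little: 68.5, 66.9 and 70.5 CPM in EPZ5676 ALDH1+ libraries, against 75.0, 74.0 and 74.4 CPM in DMSO ALDH1+ libraries. In ALDH1- cells it read 68.4, 69.5 and 70.3 CPM with EPZ5676, against 77.0, 79.3 and 77.7 CPM with DMSO. The libraries were tight and did not overlap in either population, and SCAP fell by 0.14 in the average (SE 0.04, adjusted p 0.0092). INSIG2, which holds SCAP back like INSIG1, had 51.4, 60.9 and 53.8 CPM in EPZ5676 ALDH1+ libraries, against 51.2, 55.0 and 55.3 CPM in DMSO ALDH1+ libraries. With EPZ5676 its ALDH1- libraries had 48.5, 45.6 and 49.4 CPM, against 46.4, 46.1 and 47.2 CPM with DMSO. The libraries overlapped, and the log2 fold change of INSIG2 in the average was 0.04 (SE 0.05, adjusted p 0.57), while that of INSIG1 was -0.96 (SE 0.11, adjusted p 6.7e-06). NR1H2, the liver X receptor beta, stood at 0.01 on the log2 scale (SE 0.06, adjusted p 0.92).

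Promoters of SREBF2, INSIG1, DHCR7 and MSMO1, which fell, and of SOAT1, which rose, are shown because SREBP2 and its partner NF-Y are known to act on this pathway through short sites close to the start of a gene. They are the 250 bases before the annotated start of each gene in RefSeq on GRCh38.p14, given 5′ to 3′ on the strand of the gene. Capitals mark the sterol regulatory element core TCACNCCAC and the NF-Y box CCAAT, each also where it is read on the opposite strand. SREBF2 is at chr22:41832855-41833104 on the plus strand, INSIG1 at chr7:155297628-155297877 on the plus strand, and MSMO1 at chr4:165327419-165327668 on the plus strand. SOAT1 is at chr1:179293547-179293796 on the plus strand, and DHCR7 at chr11:71448394-71448643 on the minus strand. DHCR7 has 2 annotated starts, and the promoter of the other start holds neither motif.
SREBF2: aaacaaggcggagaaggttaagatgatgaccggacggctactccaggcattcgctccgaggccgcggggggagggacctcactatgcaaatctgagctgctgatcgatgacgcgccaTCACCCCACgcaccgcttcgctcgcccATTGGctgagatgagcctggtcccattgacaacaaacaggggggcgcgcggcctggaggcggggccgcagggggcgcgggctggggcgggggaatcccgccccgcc
INSIG1: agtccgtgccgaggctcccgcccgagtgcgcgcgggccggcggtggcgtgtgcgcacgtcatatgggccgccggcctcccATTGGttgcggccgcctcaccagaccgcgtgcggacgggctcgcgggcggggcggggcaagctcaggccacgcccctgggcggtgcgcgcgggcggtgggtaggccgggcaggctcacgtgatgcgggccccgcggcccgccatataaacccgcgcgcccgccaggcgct
DHCR7: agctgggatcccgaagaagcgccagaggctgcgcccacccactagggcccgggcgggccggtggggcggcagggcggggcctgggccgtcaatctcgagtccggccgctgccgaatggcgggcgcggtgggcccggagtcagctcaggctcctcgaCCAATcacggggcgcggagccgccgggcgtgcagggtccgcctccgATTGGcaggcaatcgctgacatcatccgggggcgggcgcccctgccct
MSMO1: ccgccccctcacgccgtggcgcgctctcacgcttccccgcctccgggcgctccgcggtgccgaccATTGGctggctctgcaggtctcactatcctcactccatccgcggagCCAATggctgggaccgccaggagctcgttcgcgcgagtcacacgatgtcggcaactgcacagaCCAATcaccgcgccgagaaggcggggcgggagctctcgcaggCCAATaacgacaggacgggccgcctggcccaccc
SOAT1: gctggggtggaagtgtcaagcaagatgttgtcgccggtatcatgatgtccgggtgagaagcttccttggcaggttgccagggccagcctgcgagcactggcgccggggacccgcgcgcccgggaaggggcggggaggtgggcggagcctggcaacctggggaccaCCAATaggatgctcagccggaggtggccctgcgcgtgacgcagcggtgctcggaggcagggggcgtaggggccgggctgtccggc
In these stretches SREBF2 alone among the 5 holds the exact letters of the sterol regulatory element core, from 133 to 125 bases before its start. It also holds an NF-Y box, from 106 to 102 bases before the start. MSMO1 holds 4 NF-Y boxes, DHCR7 holds 2, and INSIG1 and SOAT1 hold 1 each.

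RefSeq promoters, from 250 bases before to 50 after the start, were matched for 28 of the 31 genes, with 39 promoters in all. ACAT2, FDFT1 and SQLE are named only. An NF-Y box on either strand was in 24 of these 39 promoters (61.5%) and in 16 of the 24 promoters of synthesis genes (66.7%), against 34.4% of the promoters of genes tested here and 34.6% of all 35116 promoters of that length. The sterol regulatory element core was in 1 of the 39, that of SREBF2 (2.56%), against 1.04% of the promoters of genes tested and 1.13% of all. The GC box GGGCGG, the site of the factor Sp1, was in 87.2% of the 39, against 65.0% of the promoters of genes tested here and 45.0% of all. Each motif was searched on both strands and counted on its own, whether or not it shared bases with another. A match is a run of letters and not a measured binding site, and SOAT1, which rose, carries an NF-Y box as well. The sterol regulatory element core was in 0 of the 24 promoters of synthesis genes. Only its exact letters were searched, so sites that differ in a letter or lie outside the promoters would be missed.

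Of the 6 genes of uptake, lysosomal release, transport and storage, 3 rose, 0 fell and 3 did not pass the test in the average over both populations, where 21.9% of all genes rose and 20.0% fell. With the replicate block 3 rose and 1, MYLIP, fell. SOAT1, the acyltransferase that turns cholesterol into esters for storage, had the largest rise of the 31 genes. It had 135, 126 and 94.3 CPM in EPZ5676 ALDH1+ libraries, against 65.1, 63.6 and 59.8 CPM in DMSO ALDH1+ libraries. ALDH1- cells had 128, 123 and 103 CPM with EPZ5676, against 66.9, 68.0 and 65.1 CPM with DMSO. Every EPZ5676 library lay above every DMSO library, replicate 3 was the lowest EPZ5676 library in both populations, and SOAT1 rose 1.88-fold in ALDH1+ (log2 0.91, SE 0.11, adjusted p 2.4e-05) and 1.77-fold in ALDH1- cells (log2 0.82, SE 0.11, adjusted p 9.7e-05).

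LIPA encodes the lysosomal acid lipase, which frees cholesterol from esters taken up with lipoproteins. It had 68.2, 79.2 and 78.5 CPM in EPZ5676 ALDH1+ libraries, against 65.5, 68.4 and 63.9 CPM in DMSO ALDH1+ libraries. Its ALDH1- libraries had 61.8, 64.9 and 72.2 CPM with EPZ5676, against 51.2, 56.6 and 59.1 CPM with DMSO. The libraries overlapped slightly in ALDH1+ and not in ALDH1- cells. LIPA rose by 0.22 in the average (SE 0.06, adjusted p 0.0062); in ALDH1+ cells alone the adjusted p was 0.085, or 0.024 with the replicate block.

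NPC2 and NPC1 hand cholesterol from the lumen of the lysosome to its membrane and out of it. NPC2 had 25.7, 28.6 and 24.4 CPM in EPZ5676 ALDH1+ libraries, against 24.8, 25.5 and 25.1 CPM in DMSO ALDH1+ libraries. Its values in ALDH1- cells were 28.4, 28.0 and 27.2 CPM with EPZ5676, against 23.5, 23.3 and 23.2 CPM with DMSO. The groups were clear of each other in ALDH1- cells and overlapped in ALDH1+ cells, and NPC2 rose by 0.16 in the average (SE 0.05, adjusted p 0.025). The ratio for NPC1 was -0.03 on the log2 scale (SE 0.07, adjusted p 0.77). MYLIP, a ubiquitin ligase and liver X receptor target that limits lipoprotein uptake, had 34.1, 21.9 and 24.1 CPM in EPZ5676 ALDH1+ libraries, against 36.9, 26.7 and 30.4 CPM in DMSO ALDH1+ libraries. In ALDH1- cells it had 38.4, 27.4 and 27.5 CPM with EPZ5676, against 41.2, 31.2 and 28.5 CPM with DMSO. Replicate 1 was the highest in all 4 groups, so the groups overlapped, although EPZ5676 was below DMSO in 6 of 6 same-numbered pairs. The log2 fold change of MYLIP in the average was -0.18 with an adjusted p of 0.3 without and 0.0073 with the replicate block, and in ALDH1+ cells it was -0.24 with 0.35 and 0.01.

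**Figure D3:**
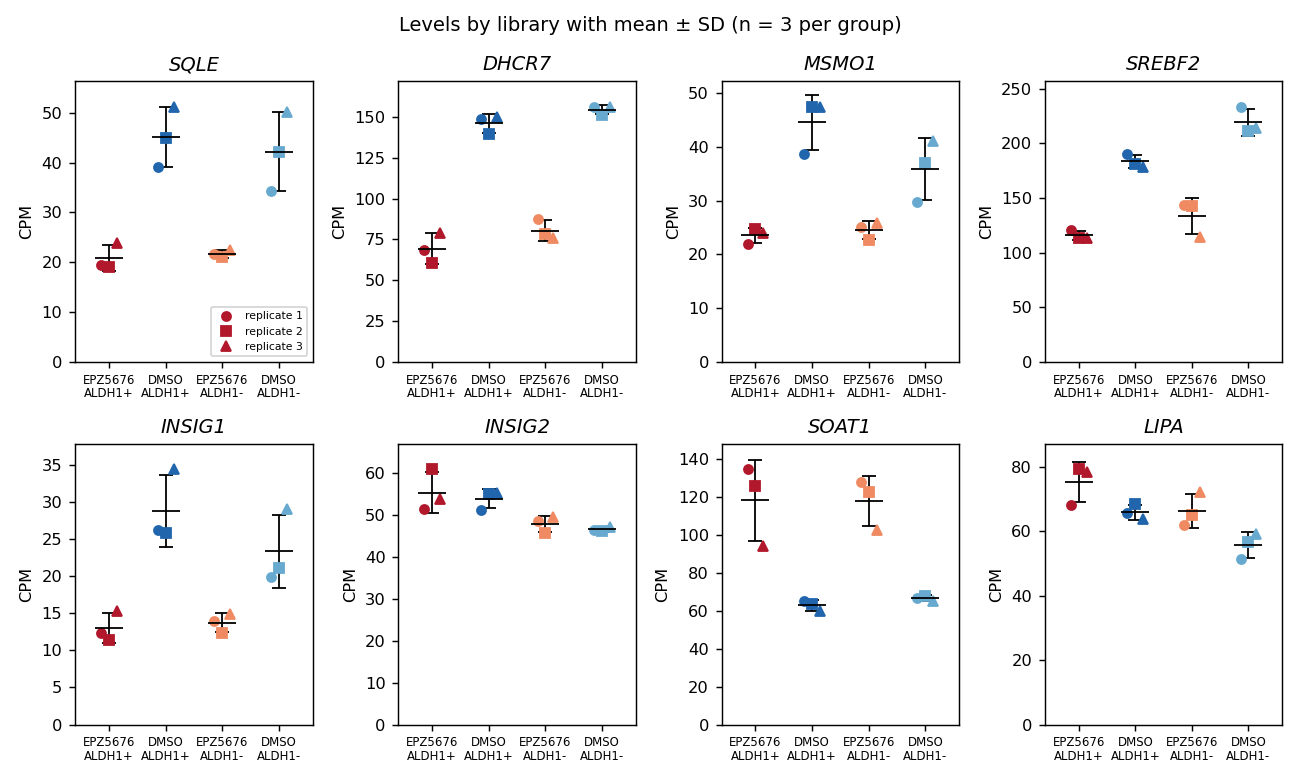
CPM (y axes, each starting at 0) of 8 genes is plotted by library for the 4 groups (x axes), with replicate numbers as symbols and the mean ± SD of 3 libraries as bars. SQLE, DHCR7, MSMO1, SREBF2 and INSIG1 are lower in the EPZ5676 groups, INSIG2 overlaps between treatments, SOAT1 is higher with EPZ5676, and LIPA is higher by a smaller step.

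Libraries with the same replicate number shared deviations, so EPZ5676 was also set against DMSO within each of 6 same-numbered pairs. Sorting followed treatment, so ALDH1+ and ALDH1- libraries of the same number and treatment may be fractions of the same culture. The 6 pairs may then not be 6 independent units, and the adjusted p of the average over both populations may be too small. A block on the replicate number does not remove this. Of the 31 genes, 21 were lower with EPZ5676 in 6 of 6 pairs, among them 17 of the 20 synthesis genes, where 19.7% of all genes were. SOAT1 and LIPA were higher in 6 of 6 pairs, where 21.1% of all genes were. The shared deviations showed in the 31 genes too: replicate 3 was the highest library in all 4 groups for MVK, IDI1, SQLE, LBR, INSIG1 and STARD4, and replicate 1 for SREBF2 and MYLIP. Over all genes, replicate 3 was highest in all 4 groups for 7.09% and replicate 1 for 7.45%. With the replicate number as a block, 23 of the 31 genes fell and 3 rose in the average over both populations, where 49.9% of all genes were called, 25.0% lower and 24.9% higher. In ALDH1+ cells the block gave 21 falls and 2 rises, where 41.8% of all genes were called. In ALDH1- cells it gave 20 falls and 3 rises, where 32.2% of all genes were called.

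Each library was also left out in turn. In the average over both populations 22 of the 24 calls held in all 12 such fits. LBR was lost in 7 of them, with an adjusted p of 0.055 to 0.081, namely without replicates 2 or 3 of either DMSO group, EPZ5676 ALDH1+ replicates 1 or 2, or EPZ5676 ALDH1- replicate 2. NPC2 was lost without EPZ5676 ALDH1+ replicate 2 (adjusted p 0.075), EPZ5676 ALDH1- replicate 1 (adjusted p 0.05) or DMSO ALDH1- replicate 2 (adjusted p 0.051). In ALDH1+ cells 18 of 20 calls held in all 12 fits. FDPS was lost there without EPZ5676 ALDH1+ replicates 1 or 3 or DMSO ALDH1+ replicate 3, with an adjusted p of 0.055 to 0.06. LBR was lost there without EPZ5676 ALDH1+ replicates 1 or 2, EPZ5676 ALDH1- replicates 1 or 2, DMSO ALDH1+ replicates 2 or 3, or DMSO ALDH1- replicate 2, with an adjusted p of 0.055 to 0.15.

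In ALDH1- cells alone 12 of 22 calls held in all 12 fits. The count of falls there was 19 with all libraries and lower without any single ALDH1- library. It was 14, 16 and 14 without DMSO ALDH1- replicates 1, 2 and 3. Without EPZ5676 ALDH1- replicates 1, 2 and 3 it was 15, 11 and 15. The 9 calls there that also held under every other setting tried were those of ACAT2, MVD, FDFT1, SQLE, LSS, DHCR7, SREBF2, INSIG1 and SOAT1. Calls of MVK, IDI1, FDPS, GGPS1, CYP51A1, TM7SF2, NSDHL, SCAP, LIPA and NPC2 were lost without EPZ5676 ALDH1- replicate 2, with an adjusted p of 0.053 to 0.12. Without DMSO ALDH1- replicate 1, FDPS, CYP51A1, TM7SF2, NSDHL, SCAP and LIPA were lost (adjusted p 0.053 to 0.14). DMSO ALDH1- replicate 2 took CYP51A1, NSDHL, SCAP, LIPA and NPC2 with it (0.052 to 0.16), and DMSO ALDH1- replicate 3 took MVK, IDI1, CYP51A1, NSDHL, SCAP and NPC2 (0.065 to 0.12). EPZ5676 ALDH1- replicate 1 took MVK, FDPS, CYP51A1, NSDHL, SCAP and NPC2 (0.053 to 0.15), and EPZ5676 ALDH1- replicate 3 took FDPS, TM7SF2, NSDHL, SCAP and LIPA (0.058 to 0.14). SCAP was also lost without EPZ5676 ALDH1+ replicates 1 or 2 or DMSO ALDH1+ replicate 2 (0.058 to 0.072), and LIPA without DMSO ALDH1+ replicate 2 (0.051). The count of rises was 1, that of SOAT1, without EPZ5676 ALDH1- replicate 2 or DMSO ALDH1- replicate 2. No called gene changed sign in any of these fits.

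A second list of 33 genes of sterol sensing, uptake, transport, export, oxysterol and isoprenoid metabolism was read from the same fit. All 33 were found and 32 were tested, CH25H having too few counts. In the average over both populations 5 rose and 6 fell, and the median log2 fold change was -0.07, against -0.02 over all genes tested. Over all genes 21.9% rose and 20.0% fell in that comparison, so the 11 calls among 32 genes are no more than the share over all genes gives. In ALDH1+ cells 4 rose and 4 fell, where 31.5% of all genes were called, or 7 and 8 with the replicate block, where 41.8% were. In ALDH1- cells 3 rose and 2 fell, where 22.6% of all genes were called, or 5 and 5 with the block, where 32.2% were. The 2 largest rises were of genes of cholesterol efflux and transport. ABCA1, the liver X receptor target that exports cholesterol to apolipoproteins, had 9.95, 6.30 and 5.46 CPM in EPZ5676 ALDH1+ libraries, against 1.56, 0.836 and 1.06 CPM in DMSO ALDH1+ libraries. Its ALDH1- libraries had 8.85, 6.42 and 5.71 CPM with EPZ5676, against 1.47, 1.26 and 1.27 CPM with DMSO. All 6 EPZ5676 libraries lay above all 6 DMSO libraries, with replicate 1 the highest of each EPZ5676 group, and ABCA1 rose 6.25-fold in ALDH1+ (log2 2.64, SE 0.26, adjusted p 3.3e-06) and 5.24-fold in ALDH1- cells (log2 2.39, SE 0.27, adjusted p 1.6e-05). GRAMD1B, which carries cholesterol from the plasma membrane to the endoplasmic reticulum, had 21.8, 19.0 and 18.3 CPM in EPZ5676 ALDH1+ libraries, against 7.93, 8.60 and 5.49 CPM in DMSO ALDH1+ libraries. ALDH1- libraries had 18.2, 17.9 and 17.0 CPM with EPZ5676, against 8.10, 8.71 and 9.06 CPM with DMSO. The groups did not overlap, and GRAMD1B rose by 1.45 (SE 0.14, adjusted p 2.5e-06) and 1.04 (SE 0.14, adjusted p 8.0e-05) in ALDH1+ and ALDH1- cells.

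NCEH1, an enzyme that splits cholesterol esters in the cytosol and so acts opposite to SOAT1, rose by 0.68 in the average (SE 0.09, adjusted p 2.6e-05), with 86.9, 67.6 and 64.6 CPM in EPZ5676 ALDH1+ libraries, against 46.6, 50.0 and 41.4 CPM in DMSO ALDH1+ libraries. Its values in ALDH1- cells were 89.9, 81.9 and 63.2 CPM with EPZ5676, against 50.3, 48.1 and 46.8 CPM with DMSO, and no EPZ5676 library was as low as a DMSO library. CYP27A1, the mitochondrial enzyme that makes an oxysterol from cholesterol, had the largest fall of the list. It had 12.7, 11.2 and 11.8 CPM in EPZ5676 ALDH1+ libraries, against 28.3, 32.9 and 35.6 CPM in DMSO ALDH1+ libraries. In ALDH1- cells the values were 12.6, 13.1 and 13.3 CPM with EPZ5676, against 27.8, 30.4 and 32.9 CPM with DMSO. The treatments were far apart in both populations, and CYP27A1 fell by 1.45 (SE 0.10, adjusted p 1.4e-07) and 1.22 (SE 0.10, adjusted p 1.3e-06) in ALDH1+ and ALDH1- cells.

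LPCAT3, ABCG1 and NR1H3, genes tied to liver X receptors, were named after their values were seen. Whether these receptors have a part in any change given here was not tested. LPCAT3, a phospholipid acyltransferase and target of these receptors, fell by 0.44 in the average (SE 0.09, adjusted p 0.00086). ABCG1, a second sterol exporter and target, was at -0.39 on the log2 scale (SE 0.17, adjusted p 0.081, or 0.0015 with the replicate block). NR1H3, the liver X receptor alpha, fell by 0.21 (SE 0.08, adjusted p 0.044). The other rises were of LRP1, by 0.58, and MBTPS2, by 0.19, and the other falls of TMEM97, ACAT1 and GRAMD1C, from 0.20 to 0.39. With the replicate block 6 of the list rose and 12 fell in the average, where 24.9% of all genes rose and 25.0% fell.

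**Figure D4:**
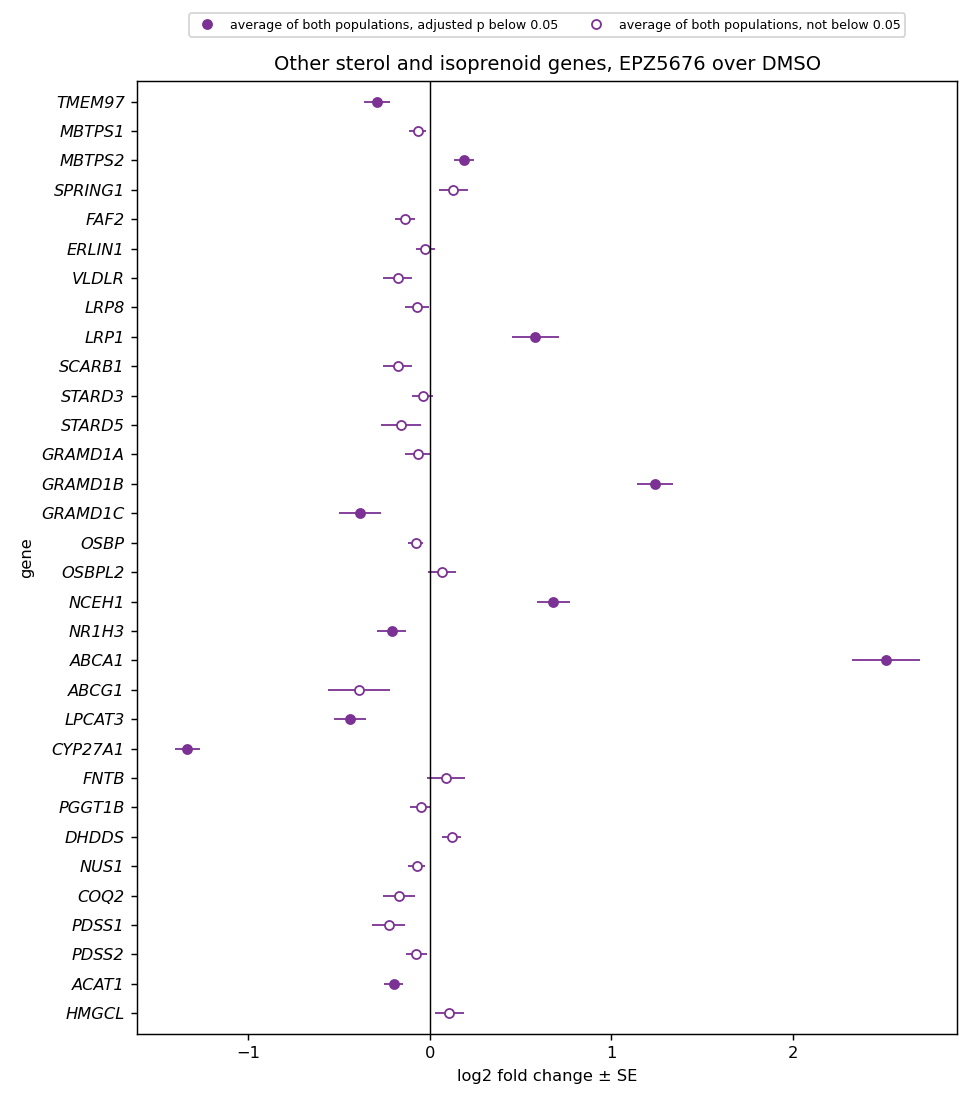
Log2 fold changes of EPZ5676 over DMSO, averaged over both populations (x axis, with SE bars), are shown for the 32 further sterol and isoprenoid genes that were tested (y axis); filled points have an adjusted p below 0.05. ABCA1 stands farthest to the right at 2.52 and CYP27A1 farthest to the left at -1.34.

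Differences between the sorted populations were small beside those of treatment. ALDH1+ against ALDH1- gave 0 of the 31 genes called with EPZ5676, 0 with DMSO and 0 in the average over both treatments, where edgeR called 0.0184%, 0% and 0.159% of all genes. At an unadjusted p below 0.05 there were 5, 9 and 10 of the 31 genes, where 6.32%, 17.8% and 19.6% of all genes were, and DESeq2 called 0, 0 and 2 of the 31. With the replicate block, 0 of the 31 genes were called with EPZ5676, 6 with DMSO and 5 in the average, where 0.459%, 8.48% and 12.2% of all genes were. The 6 were 4 higher and 2 lower in ALDH1+ cells, where 3.45% and 5.02% of all genes were, and the 5 were 3 higher and 2 lower, where 5.81% and 6.40% were. With EPZ5676, ALDH1+ libraries lay above ALDH1- libraries for PMVK and INSIG2 and below them for STARD4, where 4.95% of all genes lay above and 4.62% below (9.57% in all). With DMSO they lay above for 6 of the 31 genes and below for 5, where 10.6% lay above and 12.4% below (23.1% in all). The log2 fold changes of the 31 genes ran from -0.28 to 0.25 with EPZ5676 and from -0.26 to 0.34 with DMSO.

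The following population differences were called with the block and not in the main fit. In the average over both treatments, SREBF2 and INSIG2 were called in 3 of 4 other settings, LIPA and IDI1 in 2 and NPC1 in 1. With DMSO, IDI1 and MSMO1 were called in 2 of 5, and SREBF2, INSIG1, LIPA and NPC1 in 1. These settings were the block, RLE scaling, no filter and DESeq2, and with DMSO also the compared groups alone. SREBF2 was lower in ALDH1+ than in ALDH1- cells, by 0.26 with DMSO (SE 0.08, adjusted p 0.17, with the block 0.027) and by 0.23 in the average over both treatments (SE 0.06, adjusted p 0.089, with the block 0.0081). In the values given above for DMSO, all 3 ALDH1+ libraries lay below all 3 ALDH1- libraries of SREBF2. NPC1 had 54.3, 54.8 and 44.2 CPM in DMSO ALDH1+ libraries, against 61.3, 64.2 and 57.6 CPM in DMSO ALDH1- libraries. With EPZ5676 it had 55.2, 49.6 and 50.2 CPM in ALDH1+ libraries, against 59.3, 62.3 and 52.5 CPM in ALDH1- libraries. The groups were apart with DMSO and overlapped with EPZ5676, and the log2 fold change of NPC1 was -0.26 with DMSO (adjusted p 0.19, with the block 0.029) and in the average -0.21 (SE 0.07, adjusted p 0.11, with the block 0.013).

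LIPA and INSIG2 were higher in ALDH1+ cells. The log2 difference of LIPA was 0.21 in the average over both treatments (SE 0.06, adjusted p 0.099, with the block 0.011), and that of INSIG2 was 0.21 (SE 0.05, adjusted p 0.087, with the block 0.014). ALDH1+ libraries of INSIG2 lay above ALDH1- libraries with either treatment, and those of LIPA with DMSO (log2 fold change 0.24, adjusted p 0.18, with the block 0.032). With DMSO the estimates of IDI1, MSMO1 and INSIG1 were higher in ALDH1+ cells, but libraries of the populations overlapped for each of these genes. The log2 fold changes were 0.34 for IDI1 (SE 0.13, adjusted p 0.21, with the block 0.013), 0.31 for MSMO1 (SE 0.11, adjusted p 0.2, with the block 0.032) and 0.31 for INSIG1 (SE 0.15, adjusted p 0.31, with the block 0.029). With EPZ5676 the same 3 genes had log2 fold changes of 0.02, -0.06 and -0.09, none called. In the average over both treatments IDI1 had 0.18 (SE 0.09, adjusted p 0.3, with the block 0.023).

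**Figure D5:**
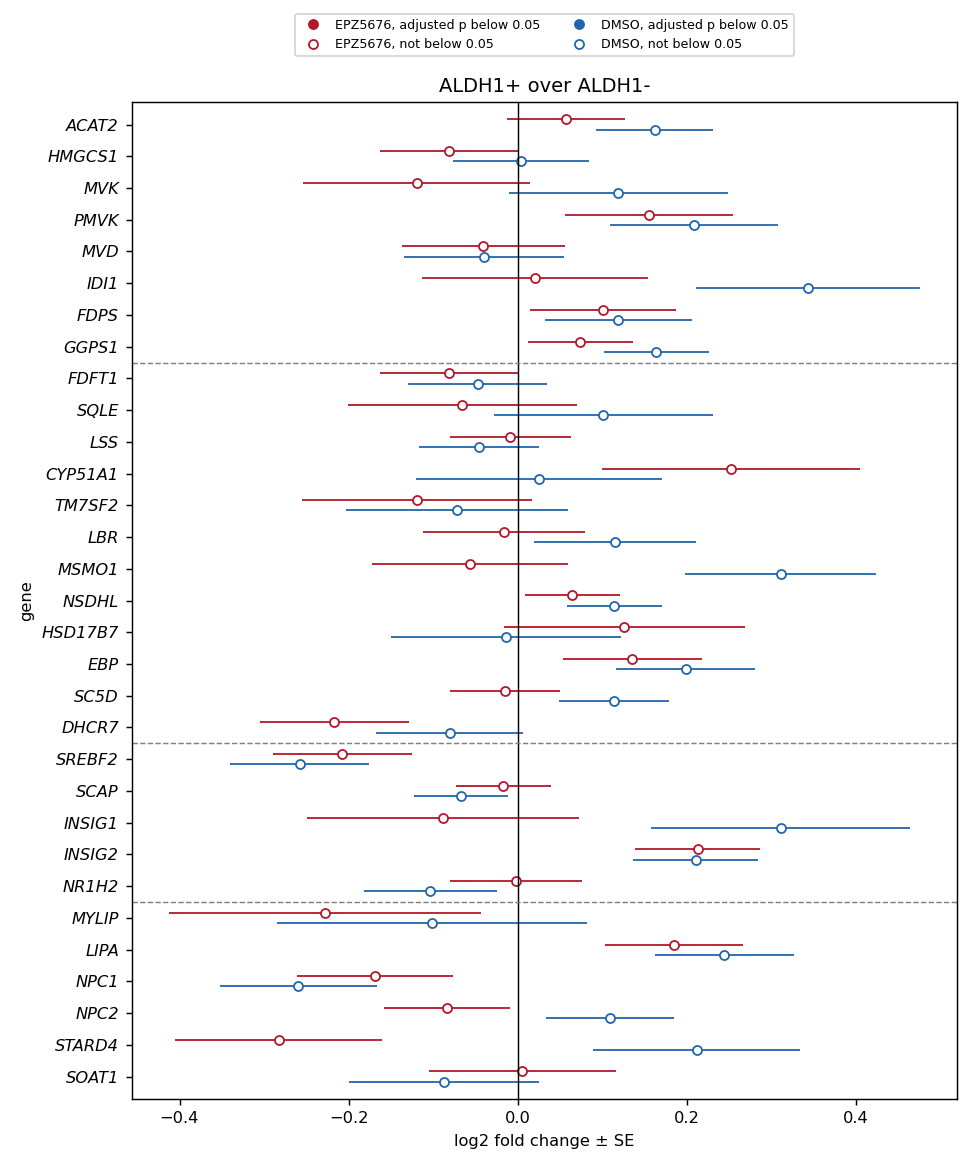
Log2 fold changes of ALDH1+ over ALDH1- cells (x axis, with SE bars) are drawn for the 31 genes (y axis), with EPZ5676 above DMSO and dashed lines between the 4 roles. All points are open, since no gene has an adjusted p below 0.05 in the main fit, and all values lie between -0.28 and 0.34.

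Whether the response to EPZ5676 differed between the populations was tested as the difference of their log2 fold changes, ALDH1+ minus ALDH1-. None of the 31 genes passed, with or without the replicate block, where 0% of all genes did in either fit. At an unadjusted p below 0.05 edgeR gave 2 of the 31 genes, where 3.66% of all genes were, and DESeq2 called 0. The 2 were STARD4 and MSMO1. STARD4, a cytosolic carrier of cholesterol between membranes, had 15.4, 13.0 and 16.1 CPM in EPZ5676 ALDH1+ libraries, against 16.2, 18.8 and 20.1 CPM in DMSO ALDH1+ libraries. Its ALDH1- libraries had 17.3, 17.9 and 18.7 CPM with EPZ5676, against 13.2, 16.4 and 18.0 CPM with DMSO. The groups overlapped in ALDH1- cells and were just apart in ALDH1+ cells, and the difference of the fold changes was -0.49 (SE 0.17, p 0.0125, adjusted p 0.98, with the block 0.33). In ALDH1+ cells alone STARD4 had a log2 fold change of -0.32 (adjusted p 0.061, with the block 0.013). The difference for MSMO1 was -0.37 (SE 0.16, p 0.0388, adjusted p 0.98), and those of INSIG1 and IDI1 were -0.40 (SE 0.22) and -0.32 (SE 0.19).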

How the data were processed

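RNA was sequenced from 12 sorted MDA-MB-468 samples with a directional kit, per the labels' protocols. The deposited values are raw read counts per gene, which the authors made from reads trimmed with Trim Galore and aligned with STAR to hg19, per the submitters' processing notes; which counter, strand setting and annotation they used is not given in the sources used here. Gene IDs were paired with symbols through a table of Ensembl gene IDs, which gave 51959 of 57783 genes a symbol; each of the 31 genes was found by its symbol.

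Counts were fitted in R 4.3.3 with edgeR 4.0.16 (limma 3.58.1): genes were filtered with filterByExpr, scaled by TMM (factors 0.975 to 1.02) and tested with the quasi-likelihood test in one fit of all 12 libraries with a term for each group. P-values were adjusted by Benjamini-Hochberg over all 16327 genes, and genes with an adjusted p below 0.05 were called. Fold changes are EPZ5676 over DMSO or ALDH1+ over ALDH1-. The common biological coefficient of variation was 9.58%. The fit was tested on simulated data first, for EPZ5676 against DMSO in ALDH1+ cells. There every gene had the same spread and libraries were independent. That test therefore does not cover deviations shared between libraries. Depth sets the precision of low genes such as CYP51A1, with 43 counts in its lowest library.

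The labels number the replicates as biological and do not say that libraries are paired. Over 12354 genes, deviations from the group means correlated at 0.17 to 0.65 in 18 same-numbered pairs and at -0.66 to 0.22 in 36 others. These ranges overlap, and centring on group means makes the correlations of the others depend on those of same-numbered pairs. The fit with the number as a block is given where it changes a call. Other alternatives were RLE scaling, no filter, DESeq2 1.42.0, the compared groups alone and leaving out libraries. The members and gene lists were chosen with earlier results of these data known, and 3 genes first placed on the list of other sterol genes are not reported here. Values per library were given for up to 4 genes a role with the smallest p in the average over both populations, and for every gene called higher or in a population or interaction comparison; the remaining genes appear by range. ABCG1, NR1H3, LPCAT3 and STARD4 were named after their values were seen.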

Additional observations from a re-analysis of the deposited data

Results flagged for a closer look

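STARD4 was picked out because its same-numbered pairs had ratios of opposite sign in the sorted populations, but the difference did not pass the correction over all genes. The p-values below rest on the same values that led to the choice, so they are no separate check. The log2 fold change in ALDH1+ cells minus that in ALDH1- cells was -0.49 (SE 0.17, unadjusted p 0.0125, edgeR). The log2 ratios of EPZ5676 to DMSO that led to the choice were -0.07, -0.53 and -0.31 in the 3 pairs of ALDH1+ cells, and 0.39, 0.13 and 0.05 in the 3 pairs of ALDH1- cells. The adjusted p of the difference was 0.98, or 0.33 with the replicate block.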

How the results depend on the processing

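Of the results on single members, 1897 kept their direction and side of the threshold under an alternative, 116 lost a call, 44 gained one and 25 changed sign, none of them called in the main analysis. The 9 members called in ALDH1- cells under every setting compare with 15 in ALDH1+ cells and 19 in the average over both populations. With the replicate block, which takes same-numbered libraries as pairs, 2 members rose in ALDH1+ cells and 2423 of all genes fell in ALDH1- cells. The block changed no other call of the 31 genes than those given above. Between the populations with DMSO, 1384 genes were called with the block, 948 without the filter and 44 by DESeq2, and 6 members with the block and 2 without the filter. With EPZ5676 these counts were 75, 235 and 17 genes, and 5 genes with only the groups compared. In the average over both treatments they were 1993, 1238 and 305 genes and 5, 5 and 2 members. The difference between the populations' responses gave 37 genes without the filter and 0 in the fits that left out libraries. The cause of these differences was not tested. PMVK in ALDH1- cells had a log2 fold change of 0.0095 with only the groups compared.

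Leaving out single libraries, or 1 replicate number in all groups (added after seeing the data), gave 2301 to 3684 genes higher and 1343 to 3399 lower in the average over both populations, with 1 to 3 members higher and 18 to 22 lower. In ALDH1+ cells it gave 1484 to 3042 genes higher and 671 to 2408 lower, with 1 to 2 members higher and 15 to 21 lower. In ALDH1- cells it gave 1012 to 2358 higher and 393 to 1609 lower, with 1 to 3 members higher and 8 to 19 lower, the 8 without replicate number 2 in all groups. Between populations it gave 0 to 61 genes with EPZ5676, 0 to 1 with DMSO, and 0 to 708 genes and 0 to 3 members in the average. Log2 fold changes that crossed 0 ran in the average from -0.075 to 0.0074 for NPC1, -0.024 to 0.054 for NR1H2, -0.11 to 0.024 for PMVK and -0.17 to 0.0008 for STARD4. In ALDH1+ cells they ran from -0.037 to 0.092 for INSIG2, -0.082 to 0.099 for NPC1, -0.0087 to 0.11 for NPC2 and -0.18 to 0.087 for PMVK. In ALDH1- cells they ran from -0.28 to 0.059 for MYLIP, -0.097 to 0.055 for NR1H2 and -0.078 to 0.086 for PMVK. RLE scaling moved the median over all genes by under 0.01.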
